A study of Homo sapiens with 2 samples.

Results

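BCR, ABL1, STAT5A, STAT5B and 6 genes that STAT5 is known to switch on or off were followed in K562 cells in which SMC1A had been repressed, the gene for a ring subunit of cohesin. They were found by symbol in the deposited table and are 10 of its 62700 genes. They are the fusion partners BCR and ABL1, the STAT5 genes STAT5A and STAT5B, the STAT5-induced genes PIM1, PIM2, PIM3, CISH and SOCS2, and the STAT5-repressed gene BCL6. All 10 had at least 100 counts summed over both libraries, as did 11319 genes of the table. The choice of genes was made with the difference between these same libraries in view, so the values are a description and carry no test.

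K562 is a line from a chronic myeloid leukemia with erythroid features. Poly(A) RNA was sequenced from 1 library of cells with the guide sgRNA_SMC1A and 1 library of cells with the guide sgRNA_Control. Cells of both guides are titled WT, carry the genotype label E50_dCas9-KRAB, which the labels do not explain beyond its dCas9-KRAB part, and express that nuclease-dead Cas9 fused to a repressor domain. Both were transduced with guide lentivirus, kept in 1 µg/ml puromycin between days 2 and 6, and sorted for high BFP from the guide vector. Each guide had 1 library, so no difference below has a replicate check, and every interval is a 95% interval for counting error only. In bulk RNA, fewer cells that express a gene and less RNA per cell cannot be told apart.

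The library with the SMC1A guide held 16864207 counts and the library with the control guide 18349209. SMC1A itself had 16.3 CPM (counts relative to the library size after TMM scaling) with its guide, against 460.4 CPM with the control guide, which is 3.55% of the control level. The 7 K562 markers used here, 5 globin genes, GATA1 and TFRC, all had at least 100 counts, with summed levels of 13132 CPM with the SMC1A guide and 15050 CPM with the control guide. Much of that sum is HBE1, which was higher (10348 CPM with the SMC1A guide and 6755 CPM with the control guide). Of the 7 markers, 5 were lower past 2-fold (HBG1, HBG2, HBZ, HBA1 and TFRC) and the median log2 ratio was -1.50. The part of this in the values below was not tested.

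BCR-ABL is the product of the t(9;22) translocation that defines chronic myeloid leukemia, a fusion in which the start of BCR is joined to most of the tyrosine kinase ABL1 and which keeps the kinase active. It leads to phosphorylation of STAT5A and STAT5B, paired transcription factors that then enter the nucleus and bind DNA. STAT5 switches on genes for survival (the PIM kinases) and for feedback (CISH and SOCS2, which restrain cytokine signalling), and it represses BCL6, which encodes a transcriptional repressor. RNA levels do not measure the kinase activity or the phosphorylation of STAT5. The fusion adds reads to the rows of both BCR and ABL1, and the gene counts do not separate it from the normal transcripts.

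STAT5 pairs bind the letters TTCNNNGAA, where N is any base, and BCL6 protein binds a motif that overlaps it. The RefSeq promoter windows (GRCh38.p14), 250 bases before to 50 bases after each start, were searched for these letters, which read the same on both strands. Windows existed for 9 of the 10 genes, all but SOCS2. Of their 12 windows, 10 held no match, and 1 window each of CISH and BCL6 held 4. Of all 35116 windows, 2689 (7.66%) held at least 1 match and 7 (0.0199%) held at least 4. The bases before the CISH start (minus strand, chr3:50611775-50612024) and the BCL6 start (minus strand, chr3:187745469-187745718) are shown because they hold these matches. Capitals mark each whole TTCNNNGAA.
CISH: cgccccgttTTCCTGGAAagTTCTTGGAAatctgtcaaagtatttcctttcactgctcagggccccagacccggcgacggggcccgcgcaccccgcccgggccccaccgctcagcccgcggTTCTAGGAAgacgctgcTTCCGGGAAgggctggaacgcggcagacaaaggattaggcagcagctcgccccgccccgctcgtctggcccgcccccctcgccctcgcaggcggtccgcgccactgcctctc
BCL6: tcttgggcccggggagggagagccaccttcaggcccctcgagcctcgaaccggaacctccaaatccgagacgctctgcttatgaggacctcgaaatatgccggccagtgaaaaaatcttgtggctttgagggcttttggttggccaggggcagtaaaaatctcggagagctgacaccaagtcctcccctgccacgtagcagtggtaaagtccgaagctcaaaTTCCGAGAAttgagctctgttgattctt
BCL6 across the start: tgaTTCTTAGAActggggTTCTTAGAAgtg
BCL6 after the start: gtggtgatgcaagaagtTTCTAGGAAaggc

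The last pair of stretches covers chr3:187745447-187745476, whose first bases repeat the end of the longer one, and chr3:187745420-187745449. In CISH all 4 matches lay before the start, their first bases 241, 230, 129 and 112 bases from it. In BCL6 the first match began 28 bases before the start, the second began 5 bases before it and ran across it, and the others began 10 and 36 bases after the first transcribed base. The second BCL6 window, at another start, held no match. A match to these letters is a description of the sequence and does not show that STAT5 was bound there.

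BCR (chromosome 22, 23179704 to 23318037, plus strand; gene spans here and below are from GENCODE 29, GRCh38) had 145.8 CPM (2572 counts) with the SMC1A guide and 175.3 CPM (3075 counts) with the control guide. Its log2 ratio, SMC1A guide over control guide, was -0.27 (-0.34 to -0.19). ABL1 (chromosome 9, 130713946 to 130887675, plus strand) had 309.7 CPM (5462 counts) with the SMC1A guide and 344.6 CPM (6046 counts) with the control guide, a log2 ratio of -0.15 (-0.21 to -0.10). These ratios put the fusion partners at 83.2% and 89.9% of their control levels, but they depend on the scaling. By library totals BCR was at -0.14 and ABL1 at -0.025, and with the trend with expression level removed BCR was at -0.08 and ABL1 turned sign, to 0.13. Ratios inside a library do not depend on scaling, and there were 0.471 BCR counts per ABL1 count (0.449 to 0.494) with the SMC1A guide and 0.509 (0.487 to 0.531) with the control guide. Neighbours were taken as genes within 500 kb on the reference chromosomes with at least 100 counts. Their counts past 2-fold, here and below, stand against 5.12% of all genes on the higher side and 2.31% on the lower side. Of 5 neighbours of BCR 0 passed 2-fold, from CHCHD10 at -0.76 to ZNF70 at 0.45, and of 6 beside ABL1 only AIF1L did (2.16-fold higher), with NCS1 lowest at -0.38. K562 chromosomes are rearranged here, which the reference does not show.

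The STAT5 genes differed from each other. STAT5A (chromosome 17, 42287547 to 42311943, plus strand) had 168.7 CPM (2975 counts) with the SMC1A guide and 442.9 CPM (7771 counts) with the control guide. It was 2.63-fold lower (counting interval 2.52 to 2.74; log2 ratio -1.39), and 102 of the 11319 genes had a lower ratio. STAT5B (chromosome 17, 42199168 to 42276707, minus strand) had 246.1 CPM (4341 counts) with the SMC1A guide and 240.6 CPM (4222 counts) with the control guide, and its log2 ratio of 0.03 had an interval that spans 0 (-0.03 to 0.09). There were 0.685 STAT5A counts per STAT5B count (0.654 to 0.718) with the SMC1A guide and 1.84 (1.77 to 1.91) with the control guide, so that STAT5B was the more abundant in counts with the SMC1A guide and STAT5A with the control guide. Summed, the pair stood at 414.8 CPM with the SMC1A guide and 683.5 CPM with the control guide (log2 ratio -0.72, -0.76 to -0.68). The paralogs share part of their sequence: 687 of 5832 stretches of 31 bases in STAT5A transcripts (11.8%) also occur in STAT5B transcripts, and the deposited counts depend on how reads from these were divided.

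STAT5A and STAT5B start 10.8 kb apart on opposite strands, with STAT3 on the other side of STAT5A. Of the 30 neighbours of STAT5A, 2 lay past 2-fold, both lower, and the median log2 ratio was -0.11. CAVIN1, which encodes a coat protein of caveolae, starts 136.0 kb from STAT5A and had 77.6 CPM with the SMC1A guide and 264.5 CPM with the control guide (log2 ratio -1.77, -1.86 to -1.68). KCNH4, a potassium channel gene 106.3 kb from STAT5A on the other side, was at -2.04 on 20 counts with the SMC1A guide and 85 with the control guide. STAT3, which encodes the related factor, lies between STAT5A and CAVIN1 and stood at -0.43 (-0.49 to -0.36). At the upper end was CCR10, just under the limit at 0.99 (its CPM ratio without the prior count was 2.01). Along the reference chromosome, STAT5A, CAVIN1 and KCNH4 were thus interleaved with genes that did not pass 2-fold, such as STAT5B and STAT3.

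**Figure D1:**
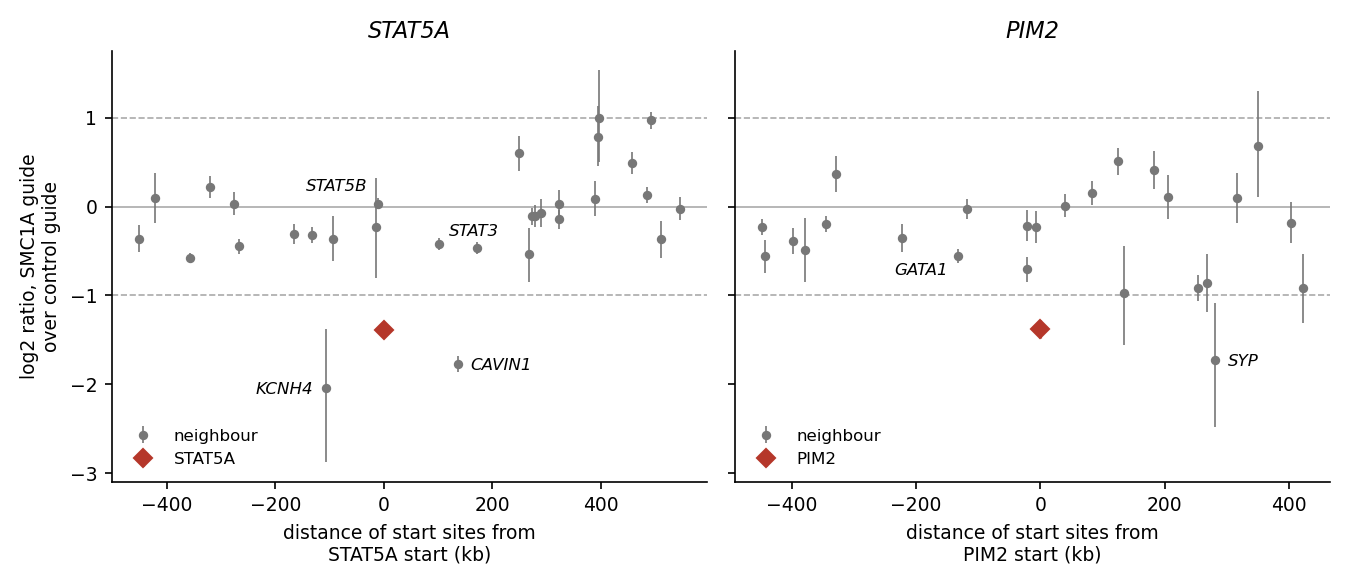
Log2 ratio (y axis, SMC1A guide over control guide) of STAT5A, PIM2 (red diamonds) and their neighbours with at least 100 counts within 500 kb (grey points) against the distance between start sites in kb (x axis); bars are 95% counting intervals and dashed lines mark 2-fold. STAT5A at -1.39 and CAVIN1 at -1.77 lie below 2-fold, while STAT5B at 0.03 and STAT3 at -0.43 between and beside them do not, and PIM2 at -1.38 has SYP as its only neighbour below 2-fold.

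Among the STAT5-induced genes the 3 PIM kinases, serine/threonine kinases that promote survival and protein synthesis, were unequal. PIM2 (chromosome X, 48913182 to 48919024, minus strand) had 57.0 CPM (1005 counts) with the SMC1A guide and 148.0 CPM (2597 counts) with the control guide, 2.60-fold lower (2.41 to 2.80; log2 ratio -1.38). PIM1 (chromosome 6, 37170203 to 37175426, plus strand) had 265.1 CPM (4676 counts) with the SMC1A guide and 369.8 CPM (6489 counts) with the control guide, a log2 ratio of -0.48 (-0.53 to -0.43). PIM3 (chromosome 22, 49960513 to 49964080, plus strand) had 28.1 CPM (496 counts) with the SMC1A guide and 31.3 CPM (549 counts) with the control guide, and its log2 ratio of -0.15 (-0.33 to 0.02) was within counting error of 0. Of all PIM counts, PIM2 made up 16.3% (exact binomial interval 15.4 to 17.2) with the SMC1A guide and 27.0% (26.1 to 27.9) with the control guide, while PIM1 made up 75.7% (74.6 to 76.8) with the SMC1A guide and 67.3% (66.4 to 68.3) with the control guide. The 3 genes summed to 350.2 CPM with the SMC1A guide and 549.2 CPM with the control guide, a log2 ratio of -0.65 (-0.70 to -0.60). No stretch of 31 bases was shared between any pair of PIM genes (0 of 2973 for PIM1).

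PIM2 lies among many active genes on the X chromosome. Of 25 neighbours 1 passed 2-fold, SYP (log2 ratio -1.72, 24 counts with the SMC1A guide and 81 with the control guide), and PPP1R3F was highest at 0.68. Their median was -0.23. GATA1, the main erythroid transcription factor gene, starts 132.5 kb from PIM2 and stood at 111.6 CPM with the SMC1A guide and 164.1 CPM with the control guide (-0.56). Around PIM1, 2 of 9 neighbours passed 2-fold, both higher, CDKN1A at 1.77 and MDGA1, which had 130 counts with the SMC1A guide and 2 with the control guide (log2 interval 4.13 to 9.08). PPIL1 was lowest there at -0.15. Around PIM3, 1 of 16 did, PLXNB2 at 1.37, with TRABD lowest at -0.58.

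The feedback genes CISH and SOCS2, whose products bind cytokine receptors and limit STAT5 activation, were both slightly higher. CISH (chromosome 3, 50606490 to 50611831, minus strand) had 123.9 CPM (2186 counts) with the SMC1A guide and 97.6 CPM (1712 counts) with the control guide, 1.27-fold (1.19 to 1.35; log2 ratio 0.34). SOCS2 (chromosome 12, 93569814 to 93583487, plus strand) had 142.1 CPM (2506 counts) with the SMC1A guide and 111.1 CPM (1950 counts) with the control guide, 1.28-fold (1.20 to 1.36; log2 ratio 0.35). The count of SOCS2 per count of CISH was nearly the same in both libraries, 1.15 (1.08 to 1.21) with the SMC1A guide and 1.14 (1.07 to 1.22) with the control guide. The span of SOCS2 overlaps the antisense gene SOCS2-AS1 (220 counts with the SMC1A guide and 157 with the control guide), and summing them left the log2 ratio at 0.36 (0.28 to 0.45). The CISH span overlaps MAPKAPK3, on the opposite strand, which stood at 0.18. Whether counting used the strand is not given in the sources used here. Of 13 neighbours of CISH 1 passed 2-fold, SEMA3F (29.1 CPM with the SMC1A guide and 4.50 CPM with the control guide), and NAA80 was lowest at -0.83. Of 6 neighbours of SOCS2 the non-coding CRADD-AS1 did so, with 136 counts with the SMC1A guide and 3 with the control guide (log2 interval 3.92 to 7.79), and NUDT4 was lowest at -0.29.

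BCL6, the gene that STAT5 represses, had the largest difference of the 10. BCL6 (chromosome 3, 187721377 to 187745727, minus strand) had 24.7 CPM (436 counts) with the SMC1A guide and 1.94 CPM (34 counts) with the control guide. It was 12.8-fold higher with the SMC1A guide (8.99 to 18.7; log2 ratio 3.63, 3.17 to 4.22), and 20 of the 11319 genes had a higher ratio. BCL6 passed the filter of 100 counts only through the library with the SMC1A guide, so this rank is a description. No gene within 500 kb of BCL6 had 100 counts. BCL6 is abundant in germinal centre B cells. The 6 fixed B cell markers, 5 of them with any count, summed to 2.32 CPM with the SMC1A guide and 6.95 CPM with the control guide, and MS4A1 was at 0 counts in both libraries. T cell markers summed to 27.0 CPM with the SMC1A guide and 18.2 CPM with the control guide, with CD2 and CD5 at 0 in both and 3 of 5 with a count. Megakaryocyte markers summed to 31.1 CPM with the SMC1A guide and 8.83 CPM with the control guide, 3 of 5 with a count, PF4 and GP9 at 0 in both. Monocyte and granulocyte markers summed to 24.7 CPM with the SMC1A guide and 18.4 CPM with the control guide, 3 of 5 with a count, MPO and ELANE at 0 in both. Nearly all of these counts were LYZ, with 428 with the SMC1A guide and 319 with the control guide. Fibroblast markers summed to 15.9 CPM with the SMC1A guide and 7.75 CPM with the control guide, 3 of 4 with a count, LUM at 0 in both. Of these, COL1A1 was higher (233 counts with the SMC1A guide and 64 with the control guide), while COL1A2 was lower (42 and 70). DCN (6 and 2) had a log2 interval that spans 0 (-0.91 to 4.92). The part of the T cell, megakaryocyte, monocyte and fibroblast markers in these values was not tested.

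**Figure D2:**
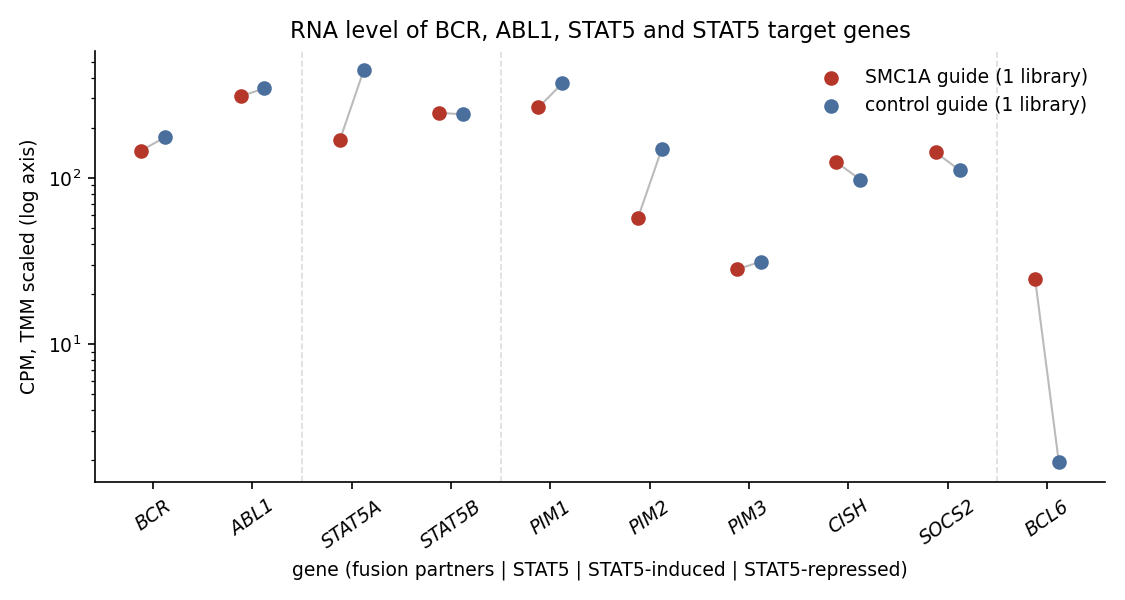
RNA level in CPM (log y axis) of each of the 10 genes (x axis, grouped by role) in the library with the SMC1A guide (red, left) and with the control guide (blue, right); each point is 1 library and there is no error bar. BCL6 stands at 24.7 CPM with the SMC1A guide and 1.94 CPM with the control guide, and of the genes that are lower with the SMC1A guide, STAT5A and PIM2 lie furthest below their control levels.

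Of the 10 genes, 1 (BCL6) was higher by 2-fold or more and 2 (STAT5A and PIM2) were lower by 2-fold or more. Over all genes with at least 100 counts these shares were 5.12% for higher (579 genes) and 2.31% for lower (262 genes). By library totals alone the genes past 2-fold split into 766 higher and 194 lower. These shares vary with expression. Sorted into 5 equal groups by expression, the group that holds BCL6 had 5.35% of its 2263 genes past 2-fold on the higher side, and the top group, which holds STAT5A and PIM2, had 1.63% of its 2264 genes past 2-fold on the lower side. The groups used the mean level of both libraries, so BCL6 was placed mostly by its level with the SMC1A guide. The contrast was used to choose the genes, so nothing is read from their share against the background. The other 7 were within 1.5-fold, as were 78.8% of all genes. The median log2 ratio was -0.15 over the 10 genes and also -0.15 over the 5 STAT5-induced genes, of which 2 lay above 0 and 3 below, against -0.05 over all genes tested. The 5 STAT5-induced genes among the 10 thus had no common direction.

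**Figure D3:**
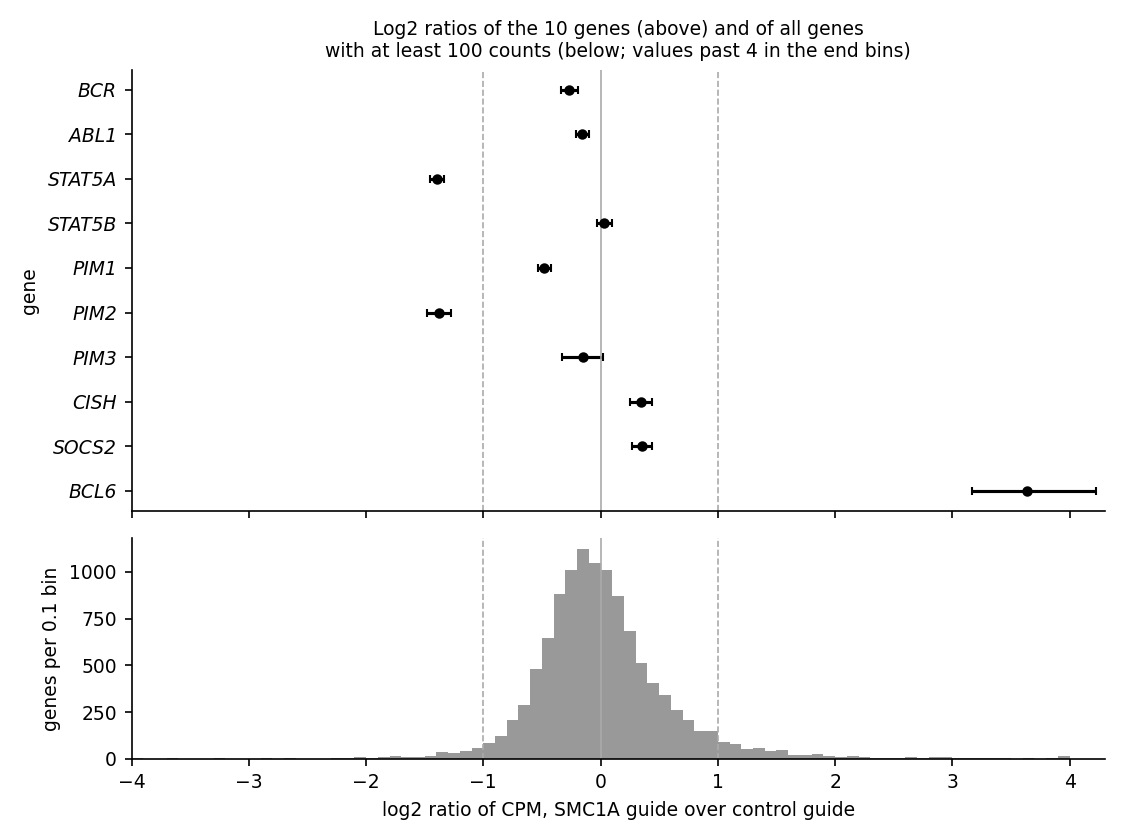
Log2 ratio of CPM, SMC1A guide over control guide (x axis), for the 10 genes with 95% counting intervals (upper panel) and as a histogram of all 11319 genes with at least 100 counts in bins of 0.1 (lower panel); dashed lines mark 2-fold. BCL6 at 3.63 lies in the right tail, STAT5A at -1.39 and PIM2 at -1.38 in the left tail, and the other 7 within the body of the histogram.

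Per length, the order of levels shifted. Values are CPM per kilobase of merged exons in GENCODE 29. With the SMC1A guide the order was PIM1 (89.1), ABL1 (49.3), STAT5B (38.2), STAT5A (29.3), CISH (24.2), SOCS2 (21.0), PIM2 (20.6), BCR (11.8), PIM3 (11.4) and BCL6 (4.16). With the control guide it was PIM1 (124.2), STAT5A (77.0), ABL1 (54.9), PIM2 (53.6), STAT5B (37.3), CISH (19.1), SOCS2 (16.4), BCR (14.1), PIM3 (12.7) and BCL6 (0.326). STAT5A and PIM2 stood at ranks 4 and 7 with the SMC1A guide and at ranks 2 and 4 with the control guide. Counting intervals of neighbours in the order overlapped for SOCS2 and PIM2 and for BCR and PIM3 with the SMC1A guide, and for ABL1 and PIM2 and for BCR and PIM3 with the control guide.

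The wider pathway was described by 8 fixed lists, in which a measured gene is 1 with at least 100 counts. Over all genes the shares past 2-fold were the same 5.12% higher and 2.31% lower. The lists were chosen with earlier results of these data known, so nothing is read from their shares against the background. Upstream of STAT5, 0 of 7 measured JAK kinases and other STATs passed 2-fold (median log2 ratio 0.07). JAK2, the kinase of erythropoietin and thrombopoietin receptors, was at 13.3 CPM with the SMC1A guide and 22.8 CPM with the control guide (-0.78), STAT3 was at -0.43, and the interferon and interleukin-4 pathway factors STAT2 and STAT6 were at 0.66 and 0.62. Only 3 of 12 receptor genes had 100 counts. KIT, the stem cell factor receptor, had 0.850 CPM (15 counts) with the SMC1A guide and 11.5 CPM (201 counts) with the control guide, 13.5-fold lower (log2 ratio -3.67). The erythropoietin receptor gene EPOR was at 0.51 and the shared cytokine chain gene IL2RG at -0.17, and the list median was -0.17. Of 14 measured SOCS genes and other inhibitors 1 passed 2-fold, SOCS3, a feedback inhibitor related to CISH (9.36 CPM with the SMC1A guide and 19.9 CPM with the control guide, log2 ratio -1.08). The phosphatase gene PTPN2 was at -0.41, PIAS1 at 0.13, SOCS5 at 0.15 and the median at 0.01.

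Partners of BCR-ABL had 1 of 15 measured members past 2-fold, on the higher side, and a median of -0.04 that was 0.09 by library totals. The higher gene was RIN1, a RAS effector that also activates ABL kinases, at 6.97 CPM (123 counts) with the SMC1A guide and 1.20 CPM (21 counts) with the control guide (log2 ratio 2.49, 1.87 to 3.29). PIK3R1, a regulatory subunit of PI3 kinase, was at 0.71. The SRC family kinase gene LYN had 93.7 CPM with the SMC1A guide and 176.5 CPM with the control guide (-0.91), and the adaptor gene GAB2 36.2 CPM with the SMC1A guide and 65.4 CPM with the control guide (-0.85).

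Other STAT5-induced genes were divided. Past 2-fold were 4 of 10 on the lower side and 2 on the higher side, and the median was -0.68. MYC had 220.3 CPM with the SMC1A guide and 610.9 CPM with the control guide (log2 ratio -1.47). The transferrin receptor gene TFRC, which is also among the K562 markers above, was at -1.41. BCL2L1, which encodes the survival protein BCL-XL, had 94.2 CPM with the SMC1A guide and 200.4 CPM with the control guide (2.13-fold lower, log2 ratio -1.09), and the fourth was SOCS3. The higher genes were ID1, an inhibitor of helix-loop-helix factors, with 255.0 CPM with the SMC1A guide and 62.2 CPM with the control guide (log2 ratio 2.03), and the D cyclin gene CCND2 with 15.6 CPM with the SMC1A guide and 5.41 CPM with the control guide (1.52).

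The remaining lists concern BCL6, the FOXO factors and the PIM kinases. BCL6 corepressor genes had 0 of 7 past 2-fold and a median of -0.20, from HDAC3 at -0.27 and SIN3A at -0.26 to NCOR1 at 0.05 and TBL1XR1 at 0.10. FOXO factors, which are known to induce BCL6 when BCR-ABL is inhibited, and FOXO-induced genes had a median of 0.29 over 7. Of them CCNG2 was higher (6.24 CPM with the SMC1A guide and 2.62 CPM with the control guide, log2 ratio 1.23) and BCL2L11, which encodes the death protein BIM, lower (16.6 CPM with the SMC1A guide and 45.7 CPM with the control guide, -1.46). CDKN1B was at 0.69 and FOXO4 at -0.07. Of 8 measured genes for PIM substrates 2 passed 2-fold, both on the higher side (median 0.08). CDKN1A, which encodes the cell cycle inhibitor p21, had 22.3 CPM with the SMC1A guide and 6.50 CPM with the control guide (1.77), and the death gene BAD had 89 counts with the SMC1A guide and 29 with the control guide (1.58, 0.99 to 2.27). NFATC1 was at -0.60 and the translation factor gene EIF4B at -0.59.

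**Figure D4:**
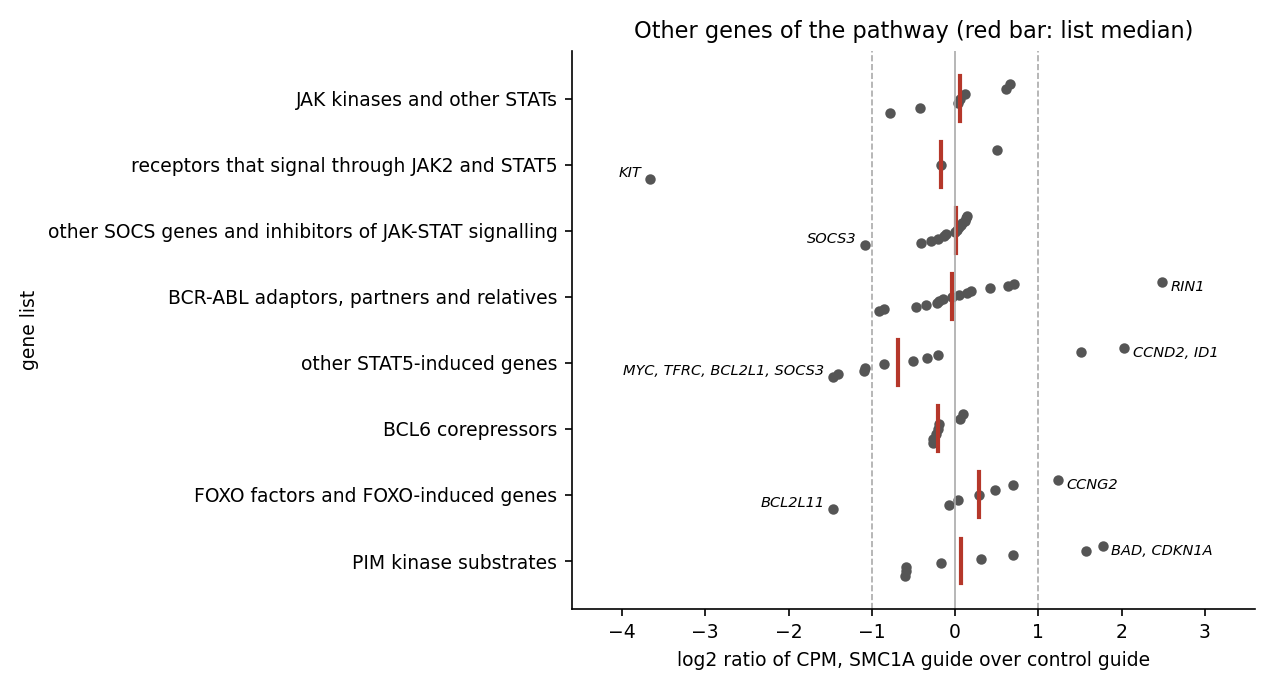
Log2 ratio of CPM, SMC1A guide over control guide (x axis), of each gene with at least 100 counts in the 8 fixed pathway lists (y axis; each point is 1 gene, the red bar is the list median, dashed lines mark 2-fold and genes past it are named). Other STAT5-induced genes have points past 2-fold on both sides and a median of -0.68, and KIT at -3.67 is the lowest point.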

How the data were processed

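RNA was measured in 1 library per guide. Per the labels' protocols, poly(A) RNA entered a strand-preserving kit and reads were paired, 100 bases each. The single table that the authors deposited holds estimated counts for each gene, named as merged Salmon counts, in whole numbers and not scaled between libraries. STAR 2.7.10a, Salmon 1.10.1, DESeq2 1.42.1 and build hg38 (GRCh38) are named per the submitters' processing notes. Which step each served, and the annotation, is not given in the sources used here. Symbols were matched by gene ID, and each of the 10 members matched 1 row. 1 gene of the fixed K562 marker list was left out and is not reported here.

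From the deposited estimated counts, TMM factors were computed (edgeR 4.0.16, R 4.3.3), and log2 ratios of CPM by the formula of edgeR with 1 as the prior count. Folds are ratios of CPM. With 1 library per guide no test across samples was made. Intervals are exact (Clopper-Pearson for ratios and shares, Poisson for levels), at 95%, and cover counting error only, since without molecular identifiers the reads need not be separate molecules. A count of 0 allows 3 counts, 0.170 CPM with the SMC1A guide and 0.171 CPM with the control guide. Genes needed 100 counts over both libraries, and a call was a log2 ratio of at least 1 in size (2-fold, prior count included). GENCODE 29 held 98.0% of these genes. The rest was done with pandas 2.3.3, scipy 1.17.1 and numpy 2.4.6 under Python 3.11.15.

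The members, lists and alternatives were chosen with earlier results of these data known. All members were named, and in each list the 2 highest, the 2 lowest and all past 2-fold; of neighbours, the highest and lowest per member. The neighbours CAVIN1, GATA1, MAPKAPK3, SOCS2-AS1 and those past 2-fold that are neither highest nor lowest were named outside the rule, after their values were seen. On simulated counts for this comparison (counting error only, 11351 genes), all 50 genes with a true 3-fold increase and all 49 with a 3-fold decrease passed 2-fold, and their 95% intervals held the true fold in 92.0% and 91.8%. With a 1.5-fold increase 0 of 50 passed (intervals 100.0%), with a 1.5-fold decrease 2 of 48 (91.7%), and among unchanged genes 0 of 11154 (95.4%).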

Additional observations from a re-analysis of the deposited data

How the results depend on the processing

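Scaled by the upper quartile, by DESeq2 size factors or by TMM without globin and mitochondrial genes, or with prior counts of 0.25 and 5, none of the 10 log2 ratios moved past its counting interval. Library totals raised them all by 0.13, past the counting interval for 8 of the 10, which moved the median of the 10 to -0.025, with 0 changes of sign. Subtracting the median of genes of like expression, chosen after seeing the data, moved 8 of the 10 past their intervals, that median to 0.025 and ABL1 to 0.13, the only change of sign among the 10 in any setting. STAT5A (-1.11) and PIM2 (-1.26) stayed past 2-fold there, and BCL6 was at 3.59. BCL6, STAT5A and PIM2 passed 2-fold under every setting run except that BCL6, with 470 counts, falls out of a filter at 500 counts, which left 0 genes higher. The counts over all genes followed the filter and limit. A filter at 20 counts gave 1361 higher and 517 lower genes, a filter at 500 gave 199 and 139, and no filter 3800 and 2713. A 1.5-fold limit gave 1375 and 1025, and 343 and 142 had their whole counting interval past 2-fold. No paired analysis was possible because each guide had 1 library and the labels give no replicate numbers. With 34 counts for the control guide, the fold of BCL6 is the least precise of the 10.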

Other observations

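Some genes of the fixed lists had too few counts for the filter and were singled out after their counts were seen. FOXO1, a FOXO factor, had 36 counts with the SMC1A guide and 8 with the control guide. PIK3IP1, an inhibitor of PI3 kinase that FOXO factors induce, had 27 counts with the SMC1A guide and 0 with the control guide. In the opposite direction, the D cyclin gene CCND1 had 5 counts with the SMC1A guide and 48 with the control guide. INPP5D, which encodes the lipid phosphatase SHIP1, had 15 counts with the SMC1A guide and 56 with the control guide, and DOK2, an adaptor that BCR-ABL phosphorylates, had 18 with the SMC1A guide and 63 with the control guide. Among others under the filter, JAK3 (19 counts with the SMC1A guide and 3 with the control guide), PTPN6 (14 and 2) and CSF3R (23 and 7) were higher. OSM (0 and 7) was lower, and CSF2RB (11 and 23) had a log2 interval that spans 0 (-2.26 to 0.02).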
